A study of Mus musculus with 15 samples.

Results

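Ribosome binding of 10 mouse genes of endoplasmic reticulum (ER) protein folding was followed in liver over the circadian day. The genes were taken by symbol and are Hspa5, Hsp90b1, Pdia4, Pdia6, Dnajb9, Sdf2l1, Creld2, Manf, Xbp1 and Herpud1. They are 10 of 20428 gene symbols in the count tables and 12 of 28167 RefSeq transcripts, because Hspa5 and Xbp1 have 2 transcripts each. The transcript with the highest mean count stands for each gene, and all 10 genes passed the minimum of 10 reads on average per library. The animals were wild-type male C57BL/6N mice, 8 to 10 weeks old, that had been kept in cycles of 12 h light and 12 h dark. They were then moved to constant darkness, and sampling began 24 h later. No group carried a mutation or received an agent. The groups differ in circadian time (CT), the hour counted from the start of the subjective day, and with it in hours spent in darkness. Circadian time and hours in darkness run together over the series and cannot be told apart. Whole livers of 2 mice were taken at 7 time points 4 h apart, from CT0 to CT24, so each of the 14 libraries is a different animal, and mouse 1 of a time point is not the same animal as mouse 1 of another.

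The ER is where a hepatocyte folds its secreted plasma proteins, and its chaperones and disulfide enzymes are abundant in liver. When unfolded proteins accumulate there, the unfolded protein response raises the genes of folding and disposal through the sensors IRE1, PERK and ATF6. IRE1 acts by an unusual route: it cuts a short intron out of cytoplasmic Xbp1 mRNA, which shifts the reading frame so that ribosomes pass the first stop codon and make the active transcription factor XBP1s. ATF6 is cleaved to release a factor that binds, together with NF-Y, the ER stress response element (ERSE) in promoters of chaperone genes.

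The promoter elements are shown because they are the sequence feature by which several of these genes are grouped in textbooks. Their presence in these windows is therefore not an independent result. Windows of 250 bases before to 50 after the RefSeq start site (assembly GRCm38.p6) were available for 9 of the 10 genes, all but Manf. On either strand the letters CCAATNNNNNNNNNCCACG, the ERSE, stood in windows of 4 of these 9 genes and in 39 of all 32851 mouse promoter windows (0.119%). Those windows belong to 27025 gene symbols, so a gene can have several. The letters ATTGGNCCACG, the ERSE-II, stood in a window of 1 of the 9 genes, Herpud1, and in 12 of all windows (0.0365%). The letters TGACGTGG, searched as the XBP1 and ATF6 element, stood in windows of 0 of the 9 genes and in 222 of all windows (0.676%). This says only that these letters are not in the windows of the 9 genes. In the lines below, each read 5′ to 3′ on the strand of the gene, the capitals mark the fixed letters of the motif, and the coordinates are those of the whole line with its flanks. The Hspa5 line is chr2:34772010-34772058, and its motif starts 65 bases before the start site. That of Herpud1 is chr8:94386362-94386402, with the motif starting 52 bases before. The Pdia6 line is chr12:17266476-17266524, with the motif starting 98 before, and the Creld2 line is chr15:88819505-88819553, with the reversed motif starting 126 before. Hsp90b1, on the minus strand, has the ERSE in both orientations, in the lines chr10:86705623-86705671 and, reversed, chr10:86705518-86705566.
Hspa5: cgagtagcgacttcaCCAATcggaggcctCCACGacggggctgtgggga
Herpud1: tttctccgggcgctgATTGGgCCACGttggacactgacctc
Pdia6: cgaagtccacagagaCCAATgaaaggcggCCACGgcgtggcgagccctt
Creld2: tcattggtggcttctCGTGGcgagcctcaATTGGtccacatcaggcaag
Hsp90b1, upstream: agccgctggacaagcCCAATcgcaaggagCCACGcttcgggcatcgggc
Hsp90b1, downstream: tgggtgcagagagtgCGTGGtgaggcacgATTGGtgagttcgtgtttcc

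The counts of a library summed to between 40593197 and 90458783 over the transcripts, and a read common to several transcripts of a gene enters such a sum once for each. Values below are counts per 1000000 reads after TMM scaling (CPM), which sets the bulk of transcripts level between libraries. Scaling by the total count instead moved the level of all transcripts together along a fitted 24 h curve of 0.46 log2 units from trough to peak, highest at CT22.4. Calls that turn on this choice are given both ways. Levels by library, differences between mice and likeness of courses are given with TMM scaling unless stated. Transcripts of the major urinary proteins (Mup) made up 34.2% of the counts in mouse 1 of CT0 and 57.6% in mouse 2 of CT12. These were the lowest and highest shares, in the libraries with the highest and lowest TMM factors (1.46 and 0.736). Hepatocyte markers were present in every library, with a summed level of 36899 to 50689 CPM for 8 of 8 genes. Markers of pancreatic acinar cells, which are rich in ER, summed to between 2.55 and 73.8 CPM in 13 libraries, with 9 of 10 genes in the tables, and to 3737 CPM in mouse 2 of CT20. Mouse 2 of CT16 stood apart too, since 100% of its counts above 0 were even, a share that was 48.9% to 50.4% elsewhere, so its raw counts may have been doubled. Results that rest on either library are given without it as well, where the gene could still be tested. Markers of plasma cells summed to 0.79 to 4.30 CPM, with Tnfrsf17 at 0 in every library.

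Per length of coding sequence (CDS), Hspa5 and Hsp90b1, general chaperones of the lumen, carried the most ribosomes among the 10 genes. Hspa5 encodes BiP, the HSP70 chaperone of the ER, and had a density of 214 ± 58.0 CPM per kilobase (SD, n = 14), rank 197 among 11747 tested genes. Hsp90b1 encodes GRP94, the HSP90 of the ER, and had 160 ± 29.5. Herpud1, a membrane protein of ER-associated degradation, followed with 112 ± 48.8, and its libraries overlapped those of Hsp90b1. Pdia6 (83.2 ± 10.3) and Pdia4 (74.4 ± 13.8), both disulfide isomerases, and Manf (73.1 ± 18.0), a small secreted protein retained in the ER with BiP, lay within 1 SD of each other. The transcription factor Xbp1 had 47.0 ± 5.96 and Sdf2l1, a lumenal partner of ERdj chaperones, 34.6 ± 11.1. Dnajb9, which encodes the BiP co-chaperone ERdj4, had 22.6 ± 9.52 and Creld2, a secreted protein with disulfide isomerase activity, 15.5 ± 9.82, at rank 1958. The lowest and highest libraries of Xbp1 and Sdf2l1 overlapped, as did those of Dnajb9 and Creld2.

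**Figure D1:**
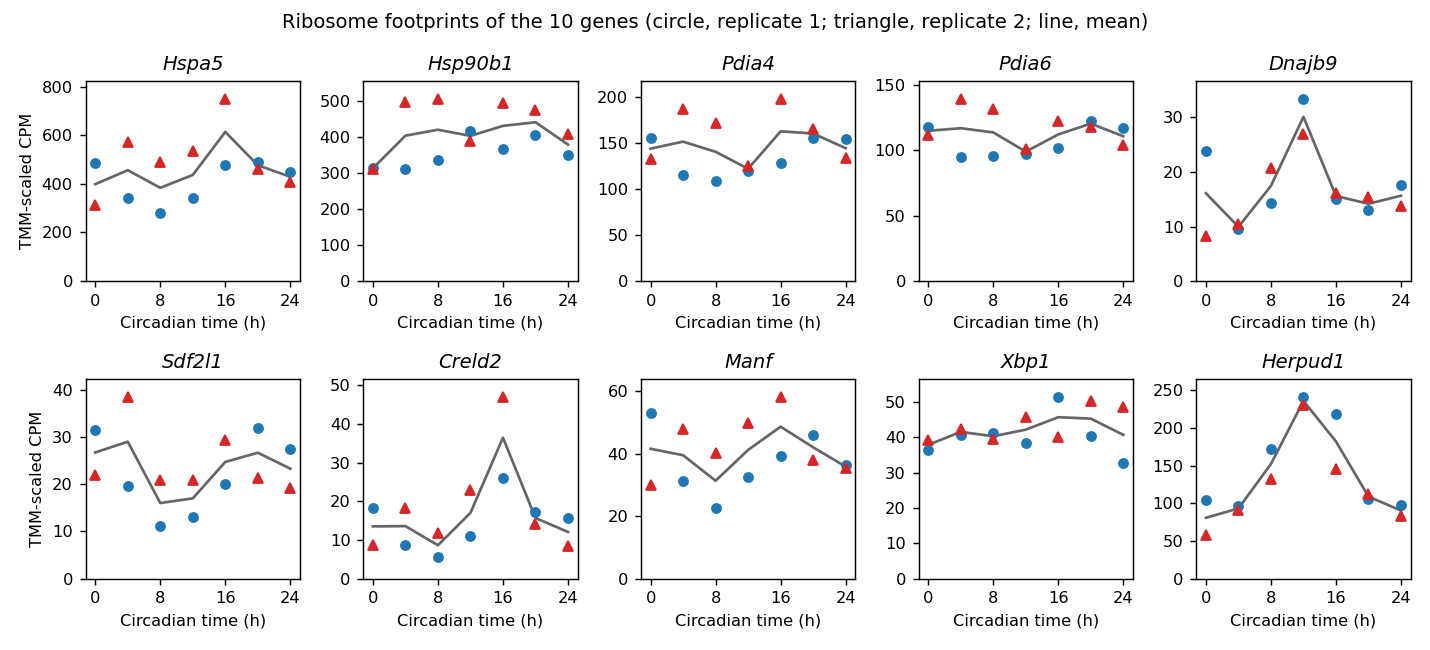
Ribosome-protected reads of the 10 genes in each of the 14 libraries (TMM-scaled CPM, linear axes from 0) against circadian time in hours, with circles for mouse 1 (replicate 1), triangles for mouse 2 (replicate 2) and a line through their mean. Herpud1 is highest at CT12 and Creld2 at CT16, while for Hspa5 the 2 mice of CT8 lie at 278 and 489.

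Herpud1 (chr8:94386429-94395371) had the clearest daily course of the 10 genes. Its 2 mice read 104 and 57.8 CPM at CT0, 95.9 and 90.5 at CT4, and 172 and 132 at CT8. They read 241 and 230.2 at CT12, 218 and 146 at CT16, 105 and 112 at CT20, and 97.4 and 83.4 at CT24. With TMM scaling the CT12 pair was the highest of the 7 and overlapped no other pair, and the lowest library was mouse 2 of CT0. With total-count scaling mouse 1 of CT16 was the highest library, and the CT12 and CT16 pairs overlapped. A cosine of 24 h fitted with edgeR's quasi-likelihood test gave a 2.72-fold change from trough to peak (1.45 on the log2 scale), a peak at CT12.7 with a standard error of 0.55 h, and an adjusted p of 2.31e-05. As whole liver was taken, less RNA per cell and fewer cells of a type cannot be told apart for any of these values. Without mouse 2 of CT20 the adjusted p was 3.26e-05 and without mouse 2 of CT16 it was 1.93e-05, and leaving out any other library gave at most 0.000213.

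Creld2 (chr15:88819646-88826681) had a change of much the same size, later at night, and with a far weaker test. The 2 mice read 18.3 and 8.80 CPM at CT0, 8.85 and 18.4 at CT4, 5.59 and 11.7 at CT8, and 11.1 and 22.9 at CT12. At CT16 they read 25.9 and 47.0, at CT20 17.3 and 14.1, and at CT24 15.8 and 8.39. Both CT16 mice were above all other libraries, and mouse 1 of CT8 was lowest, at 8.41-fold less than the highest. The fit gave a 2.70-fold change with a peak at CT16.6 (standard error 1.26 h) and an adjusted p of 0.0484. The call rested on single libraries: without mouse 2 of CT16 the trough-to-peak change was 0.94 log2 units with an adjusted p of 0.298, and without mouse 1 of CT4 the adjusted p was 0.110. In 9 of the 14 fits with a library left out the adjusted p was above 0.05, the other 7 being mouse 2 of CT0, mouse 2 of CT12, mouse 1 of CT16 and both mice of CT8 and of CT24 (0.0599 to 0.0841).

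With TMM scaling Dnajb9 (chr12:44205897-44210068) was highest in the same pair of livers as Herpud1. It read 23.9 and 8.33 CPM at CT0, 9.48 and 10.4 at CT4, and 14.3 and 20.7 at CT8. It read 33.3 and 26.9 at CT12, 15.1 and 16.1 at CT16, 13.0 and 15.4 at CT20, and 17.6 and 13.7 at CT24. Both CT12 mice exceeded every other library, and the CT0 mice differed 2.87-fold. With total-count scaling mouse 1 of CT0 exceeded both CT12 mice. The 24 h fit gave 0.79 log2 units with a peak at CT12.9 (standard error 1.86 h) and an adjusted p of 0.175, which missed the threshold. Without mouse 1 of CT0, the adjusted p was 0.0226.

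The chaperones and disulfide enzymes did not pass the 24 h test. Hspa5 (chr2:34772090-34776529) read 484 and 313 CPM at CT0, 340.4 and 571 at CT4, 278 and 489 at CT8, and 340.1 and 533 at CT12. It read 479 and 748 at CT16, 491 and 462 at CT20, and 449 and 409 at CT24. The CT16 mean of 613 ± 190 (SD, n = 2) was the highest, but mouse 1 of CT16 lay below mouse 2 of CT4, CT8 and CT12. Its fitted change was 0.45 log2 units with a peak at CT16.8 and an adjusted p of 0.433, and it was 0.20 without mouse 2 of CT16 and 0.70 without mouse 2 of CT4. Hsp90b1 (chr10:86690841-86705444) ranged from 312 CPM in mouse 1 of CT4 to 505 in mouse 2 of CT8, with a fitted change of 0.24 and an adjusted p of 0.628. Pdia4 (chr6:47796141-47813512) ranged from 109 to 197, and Pdia6 (chr12:17266589-17284785) from 94.8 to 139. Their fitted changes were 0.22 and 0.14 log2 units, with adjusted p of 0.735 and 0.786. With a library left out they ran from 0.10 to 0.39 and from 0.088 to 0.23, and for Hsp90b1 from 0.17 to 0.39, without a call.

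The small lumenal and regulatory genes gave no call either. Sdf2l1 (chr16:17130138-17132383) ran from 11.2 CPM in mouse 1 of CT8 to 38.5 in mouse 2 of CT4, with a fitted change of 0.66 log2 units, a peak at CT22.4 and an adjusted p of 0.277. Manf (chr9:106888753-106891938) ran from 22.5 to 58.1 in the same libraries that were lowest and highest for Hspa5, with a fitted change of 0.41 and an adjusted p of 0.522 (0.26 without mouse 2 of CT16, 0.62 without mouse 2 of CT4). Xbp1 (chr11:5520641-5525993) ran over a 1.57-fold range, from 32.8 CPM in mouse 1 of CT24 to 51.4 in mouse 1 of CT16, with a fitted change of 0.20 and an adjusted p of 0.652, and 0.11 without mouse 1 of CT16.

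Thus 2 of the 10 genes, Herpud1 and Creld2, were called with edgeR at 24 h, where 11.3% of 17299 transcripts were called. With a minimum of 100 counts on average, 16.7% of 12029 transcripts were called. The median fitted change was 0.43 log2 units over the 10 genes and 0.44 over all transcripts tested, many of which had fewer reads than these genes. With total-count scaling 3 of the 10 were called, at a background of 8.25%. Those were Herpud1 with an adjusted p of 0.0205, Creld2 with 0.0302 and Sdf2l1 with 0.0330, and the fitted peaks of the 10 genes then lay between CT13.9 and CT22.5. The fitted change was then larger in 8 of the 10 genes, at 0.76 log2 units for Hspa5, 0.37 for Hsp90b1, 0.70 for Pdia4, 0.62 for Pdia6, 1.19 for Sdf2l1, 1.66 for Creld2, 0.80 for Manf and 0.52 for Xbp1. It was smaller for Herpud1 (1.12) and Dnajb9 (0.48). JTK_CYCLE, the rank test named in the study's methods, depended on the same choice. Its adjusted P is corrected for the lags tried within a transcript and not across transcripts, unlike the adjusted p of edgeR. On total-count CPM JTK_CYCLE called only Pdia6 (adjusted P 0.0126), with Herpud1 at 0.0904, against 22.2% of all transcripts. Corrected across transcripts by the Benjamini-Hochberg method, Pdia6 had a q of 0.116, and 2.22% of all transcripts passed. The Pdia6 call was lost, at an adjusted P of 0.0546, without either mouse of CT0 or of CT12 or without mouse 1 of CT8. Without mouse 1 of CT20, 5 of the 10 passed and so did 28.8% of all transcripts: Pdia6 (0.00457), Hsp90b1 (0.0224), and Hspa5, Manf and Herpud1 (0.0355 each). At 0.0355 Hspa5 and Manf also passed without mouse 2 of CT4, Sdf2l1 without mouse 2 of CT24, and Herpud1 without mouse 1 of CT0, where 18.4%, 18.0% and 12.2% of all transcripts passed. On TMM CPM it called only Herpud1 (0.000107, peak at CT14), against 17.7%.

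**Figure D2:**
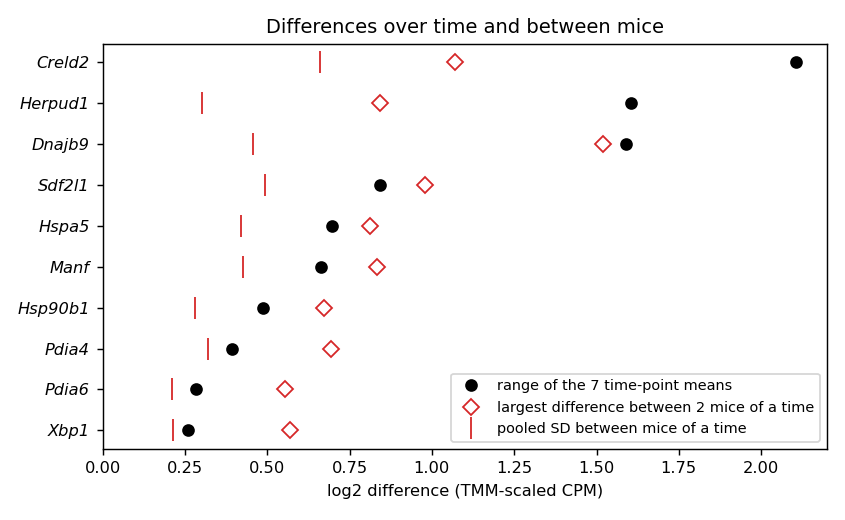
For each of the 10 genes, the range of the 7 time-point means (filled points), the largest difference between the 2 mice of a time point (diamonds) and the pooled SD between mice (bars), all on the log2 scale. With TMM scaling, as shown, the range over time is the larger for Herpud1, Creld2 and Dnajb9, and the difference between mice is the larger for the other 7 genes. With total-count scaling the range is the larger for Hspa5, Pdia4, Pdia6, Sdf2l1 and Manf too, and the smaller for Dnajb9.

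The course may also be asked for a 12 h component, since courses of that period have been described for this pathway in liver. With edgeR, 0 of the 10 genes passed for the 12 h terms, against 0.202% of all transcripts. At an unadjusted p under 0.05 there were 2 of the 10, and 1259 of 17299 transcripts. They were Dnajb9, with 0.94 log2 units from trough to peak and an adjusted p of 0.252, and Creld2, with 1.09 and an adjusted p of 0.495. Without mouse 2 of CT0 the 12 h adjusted p of Dnajb9 was 0.0406. Samples 4 h apart give only 3 points per 12 h cycle. The unrestricted comparison of the 7 time points called 1 of the 10, Herpud1 (adjusted p = 0.00114 by edgeR), against 7.08% of all transcripts. Creld2 had an adjusted p of 0.0681 there and Dnajb9 0.0737. Dnajb9 passed without mouse 1 (0.00122) or mouse 2 (0.00287) of CT0, and Creld2 without mouse 1 of CT0 (0.0497) or either mouse of CT12 (0.0495 and 0.0427). The adjusted p of Creld2 rose to 0.532 without mouse 2 of CT16 and to 0.145 without mouse 1 of CT8, and that of Dnajb9 to 0.358 without mouse 1 of CT12 and 0.216 without mouse 1 of CT4. With total-count scaling 3 of the 10 passed, Creld2 (0.000512), Sdf2l1 (0.0102) and Herpud1 (0.0312), against 12.7% of all transcripts.

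Mice taken 24 h apart, at the same circadian phase but with more hours of darkness at CT24, gave no call. Between CT24 and CT0, 0 of the 10 genes passed with edgeR, none of the 10 at an unadjusted p under 0.05, and 0% of the 17299 transcripts, of which 873 had an unadjusted p under 0.05. The differences, CT24 minus CT0, ran from -0.21 log2 units for Manf to 0.27 for Hsp90b1, with adjusted p of 0.957 to 0.999. With 2 mice on each side these values do not show that the levels were equal. The sign of Manf turned without mouse 1 of CT0 (0.24), and that of Hsp90b1 with total-count scaling (-0.041).

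With TMM scaling the largest difference between the 2 mice of a time point exceeded the range of the time-point means in most of these genes. With total-count scaling the range was the larger for Hspa5, Pdia4, Pdia6, Sdf2l1 and Manf too, and the smaller for Dnajb9. Both measures hold spread between mice, and the variance was not divided into parts. The SD between mice, pooled over the 7 time points on the log2 scale, was 0.66 for Creld2, 0.49 for Sdf2l1, 0.46 for Dnajb9, 0.43 for Manf and 0.42 for Hspa5. It was 0.32 for Pdia4, 0.30 for Herpud1, 0.28 for Hsp90b1, and 0.21 for both Pdia6 and Xbp1. Over the 5185 transcripts with at least 500 reads on average, which is the depth class of all 10 genes, the median was 0.18 and the 90th percentile 0.31. Xbp1 and Pdia6 were thus close to that median, and 6 of the 10 genes lay above the 90th percentile.

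These differences ran the same way in several of the genes. Hspa5 was higher in mouse 1 than in mouse 2 by 0.63 log2 units at CT0, 0.09 at CT20 and 0.13 at CT24. The difference, mouse 1 minus mouse 2, was -0.75 at CT4, -0.81 at CT8, -0.65 at CT12 and -0.64 at CT16. Pdia6, Sdf2l1, Creld2 and Manf had the sign of Hspa5 at 7 of 7 time points, and Pdia4 at 6 of 7. Dnajb9 had it at 5 of 7 and Hsp90b1 at 4 of 7. Among 11737 other tested genes 1.18% had that sign at 7 of 7 and 7.34% at 6 or 7. Among the 86 other genes of the pathway taken up later, 5 had it at 7 of 7 (5.81%): Hyou1, Ostc, Pdia5, Ppib and Txndc5. Herpud1 and Xbp1 shared it at 2 of 7 only, so Herpud1 was the higher in mouse 1 at CT4, CT8, CT12 and CT16, where Hspa5 was the lower. At CT4, 9 of the 10 genes were higher in mouse 2 and at CT8 8 were, while at CT0 9 were higher in mouse 1. All of these signs are with TMM scaling. With total-count scaling Hspa5 was lower in mouse 1 at CT20 as well. Pdia6 was then higher in mouse 1 at CT12 and CT16, and Sdf2l1 at CT20, where Hspa5 was lower. The sharing of signs was noticed in these data, and no test of it was made.

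Several library measures were set beside it. The total count had the sign of Hspa5 at 2 of 7 time points, the TMM factor at 2, the hepatocyte markers at 2, and the share of reads in 5′UTRs at 5. Among cell type markers the summed level of Kupffer cells (102 to 173 CPM, 8 of 8 genes) had it at 6 of 7, stellate cells (110 to 178, 6 of 6) at 5 and endothelium (86.3 to 134, 5 of 5) at 4. The acinar markers had it at 3. The plasma cell markers had it at 6, with a sum that was mostly Derl3, itself a gene of ER-associated degradation. The part of these in the differences between mice was not tested.

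**Figure D3:**
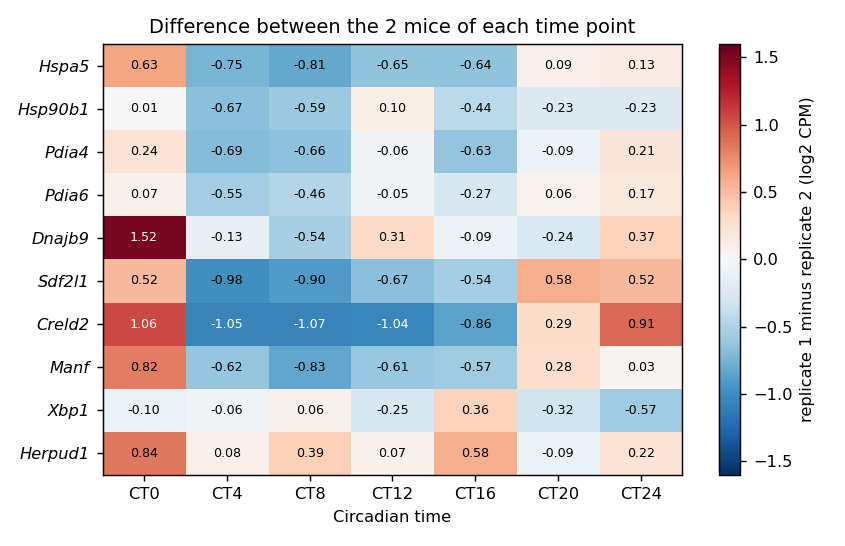
Difference between the 2 mice of each time point (mouse 1 minus mouse 2, log2 CPM, printed in each cell, red above and blue below 0) for each of the 10 genes over the 7 circadian times. With TMM scaling, as shown, Hspa5, Pdia6, Sdf2l1, Creld2 and Manf share their sign at all 7 times, positive at CT0, CT20 and CT24 and negative at CT4 to CT16, whereas Herpud1 and Xbp1 follow other courses. With total-count scaling Hspa5 and Pdia6 turn negative at CT20, where Sdf2l1 stays positive, and Pdia6 turns positive at CT12 and CT16.

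Over the 14 libraries Hspa5 was the gene most like the rest of the group, with a Pearson r of 0.947 to the mean of the 9 others. Manf had 0.869, Creld2 0.811, Pdia4 0.732, Hsp90b1 0.656, Pdia6 0.562 and Sdf2l1 0.534. Dnajb9 had 0.18, Herpud1 0.069 and Xbp1 -0.0037. These are descriptions over 14 points that share library and scaling. Among 8212 other genes with at least 100 reads on average, the 8 most like the mean course of the 10 were Kyat3 (r = 0.942), Dnajc3 (0.863), Hyou1 (0.861), Gfpt1 (0.853), Hspa13 (0.846), Apol9a (0.837), Rint1 (0.824) and Sel1l (0.823). Of these, Dnajc3 encodes the BiP co-chaperone p58IPK, Hyou1 the nucleotide exchange factor GRP170, Hspa13 an HSP70 of microsomes and Sel1l the adaptor of the HRD1 ubiquitin ligase. Gfpt1 encodes the first enzyme of hexosamine synthesis and Kyat3 a kynurenine aminotransferase.

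The 2 forms of Xbp1 mRNA can be told apart in part by where ribosomes lie. The stretch shown here is the site of IRE1, in exon 4 (chr11:5524239-5524384, plus strand, GRCm38.p6). The capitals mark the 26 bases at chr11:5524278-5524303 that the spliced transcript lacks and the unspliced transcript has, with 24 bases on either side.
Xbp1: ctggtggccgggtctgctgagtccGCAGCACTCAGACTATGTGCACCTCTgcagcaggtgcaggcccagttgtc
Past the stop codon of the unspliced form, 338 bases (chr11:5524905-5525242) are coding only in the spliced form, which reads them in the shifted frame. Reads there come from ribosomes on spliced mRNA or from those that stray beyond the first stop.

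Ribosomes were found in that stretch in every library. Mice 1 and 2 gave 177 and 95 reads at CT0, 126 and 35 at CT4, 140 and 116 at CT8, and 294 and 256 at CT12. They gave 184 and 58 at CT16, 81 and 135 at CT20, and 100 and 209 at CT24. The CT12 pair was the highest and mouse 2 of CT4 the lowest. All libraries together had 2006 reads, and 95 reads in the 751 bases beyond the stop codon of the spliced form, a density 46.9-fold lower.

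Against the density over the CDS of the unspliced form, the spliced-only stretch stood at 15.1% over all reads. By library the ratio was 22.1% and 10.1% at CT0, 12.5% and 3.98% at CT4, 10.8% and 12.1% at CT8, and 26.5% and 28.1% at CT12. It was 15.5% and 7.30% at CT16, 12.3% and 11.7% at CT20, and 16.5% and 20.2% at CT24. The 2 mice of CT12 exceeded all others, and the lowest and highest libraries differed 7.07-fold, against 1.57-fold for Xbp1 reads as a whole. The fitted 24 h change was 0.52 log2 units with a peak at CT15.1, and a permutation test of the 24 h terms over the 14 libraries gave p = 0.707 (100000 shuffles of the libraries). A cosine is a poor description of a single high time point, and a rise at CT12 alone, seen after the values were known, was not tested. Without mouse 2 of CT16 the fitted change was 1.02 log2 units (p = 0.293 by the same permutation test), and without mouse 2 of CT4 it was 0.25 (p = 0.870).

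On the other side, reads counted for the unspliced and not for the spliced transcript numbered 882 in the 26 bases, which is 86.0% of the density over the CDS, with 29 to 100 reads per library. The study's methods keep exact matches to the genome, and they do not say how a footprint across the junction of the spliced form was counted. The ratio is thus not a share of spliced molecules, and only its comparison between libraries is given.

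**Figure D4:**
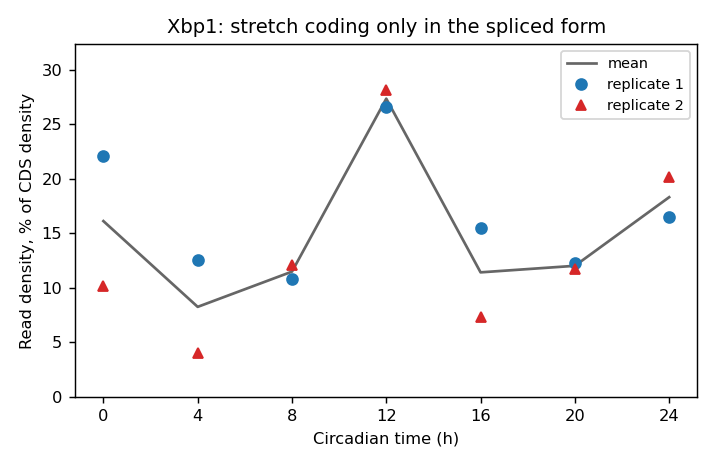
Density of ribosome-protected reads in the 338 bases of Xbp1 that are coding only in the spliced form, as a percent of the density over the CDS of the unspliced form, in each library against circadian time in hours, with circles for mouse 1, triangles for mouse 2 and a line through their mean. The 2 mice of CT12 lie at 26.5% and 28.1%, above the other 12 libraries, and mouse 2 of CT4 is lowest at 3.98%.

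Read density on 5′UTRs differed widely between the genes. Hspa5 and Hsp90b1 had a 5′UTR density of 66.7% and 67.5% of their CDS density over all reads, close to the median of 63.9% over 5136 genes, and Dnajb9 had 58.5%. Creld2 had 21.9%, Herpud1 20.9% and Pdia4 13.3%, and the lowest were Xbp1 (8.96%), Sdf2l1 (4.58%), Manf (2.89%) and Pdia6 (2.02%). The 5′UTRs of Sdf2l1, Manf and Pdia6 are only 73, 40 and 23 bases long, with 93, 69 and 32 reads over all libraries. Footprints were assigned to an A site inside the read, which leaves fewer usable bases in a short 5′UTR. The part of this in the low values was not tested. For Hspa5 the ratio ran from 34.7% in mouse 1 of CT12 to 95.4% in mouse 2 of CT4. The 81 bases by which the longer Hspa5 transcript extends the shorter held 2138 reads per 100 bases, against 16742 in the 151 bases common to both and 17460 in the CDS. A 24 h course of reads in the 5′UTR relative to the CDS was tested in the 7 genes with enough 5′UTR reads, and 0 of 7 passed with limma (adjusted p 0.809 to 0.944), nor did any at an unadjusted p under 0.05. The background was 0% of 7640 transcripts, with 377 at an unadjusted p under 0.05.

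The other genes of the pathway were taken as 6 lists with 86 tested genes. Of these 8 passed the 24 h test with edgeR (9.3%), against 11.2% of 11747 genes, and the median fitted change was 0.28 log2 units against 0.44. The values over all genes were not matched to the lists for read depth. With total-count scaling 2 of the 86 were called (2.33%), against 8.31% of the 11747 genes, and 6 of these 8 calls were lost, all but those of Erp29 and Pdia2. Pdia2 reached the count minimum only through mouse 2 of CT20 and is not tested without it. Leaving Pdia2 out gave 7 of 85 genes (8.24%) with TMM and 1 of 85 (1.18%) with total-count scaling. Among the 8 sensors and regulators only Atf6 passed, with 0.61 log2 units, a peak at CT12.0 and an adjusted p of 0.00202, but 0.29, CT15.2 and 0.656 with total-count scaling. Ern1, which encodes IRE1, had 0.24 with an adjusted p of 0.630, and Eif2ak3, which encodes PERK, had 0.28 with 0.791. Creb3l3, a liver factor cleaved as ATF6 is, had the highest density of this list, 83.0 ± 8.69 CPM per kilobase (SD, n = 14), and Atf6b had an adjusted p of 0.229.

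Of the 16 other lumenal chaperones and co-chaperones 1 passed, the prolyl isomerase Fkbp11 (1.04 log2 units, peak at CT10.5, adjusted p 0.0132 by edgeR, and 0.57 with 0.237 by total-count scaling). Calr, the lectin chaperone calreticulin, was the densest at 280.4 ± 42.4 and had 0.33 log2 units with an adjusted p of 0.292, and Dnajc10 had 0.61 with 0.173. Of the 13 other disulfide enzymes 3 passed, Txndc5 (0.53, CT15.8, 0.0191), Erp29 (0.56, CT19.5, 0.0327) and Pdia2. Pdia2 is an isomerase of pancreas, and its call rests on 662 reads in mouse 2 of CT20, the library with acinar markers, against at most 20 elsewhere. P4hb, the main disulfide isomerase, was the densest with 357 ± 34.2 and had an adjusted p of 0.290.

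Of the 21 genes of ER-associated degradation 1 passed, Edem3, which trims mannose from misfolded glycoproteins (0.51, CT12.5, adjusted p 0.0322 by edgeR). Ube2g2 had 0.71 with an adjusted p of 0.147, and Derl1, the densest at 42.0 ± 2.82, had 0.07 with 0.909. Of the 18 genes of translocon and signal peptidase 2 passed, Srprb (0.63, CT14.8, 0.0304) and Srpr (0.44, CT14.3, 0.0419), the 2 subunits of the receptor for the signal recognition particle. Ssr3, of the translocon-associated complex, was the densest at 104 ± 15.5 with an adjusted p of 0.155. Of the 10 N-glycosylation genes 0 passed, with adjusted p of 0.226 for Stt3b and 0.256 for Stt3a, the catalytic subunits, and 0.779 for Dad1, the densest at 81.8 ± 15.3. Leaving out a library lost the call of Srpr in 11 of 14 fits, of Srprb and Erp29 in 6 each, of Edem3 in 4 and of Txndc5 in 3, among them the fit without mouse 2 of CT16 for each (adjusted p 0.0510 to 0.119 there), and of Atf6 and Fkbp11 in 0. By JTK_CYCLE, with its adjusted P not corrected across transcripts, 29 of the 86 genes passed on total-count CPM (33.7%), against 22.1% of the 11747 genes. These were 1 of the 8 sensors and regulators, 8 of the 16 chaperones, among them Calr (adjusted P 0.00046), 5 of the 13 disulfide enzymes, 4 of the 21 degradation genes, 5 of the 18 translocon genes and 6 of the 10 N-glycosylation genes, among them Stt3b (0.0297). On TMM CPM 11 of the 86 passed (12.8%), against 17.7% of the 11747 genes, with 2 of the chaperones and 0 of the N-glycosylation genes, and Calr stood at 0.517, Stt3b at 0.0904 and Atf6 at 0.000881. At 12 h 0 of the 86 did by edgeR, the lowest adjusted p being 0.170.

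**Figure D5:**
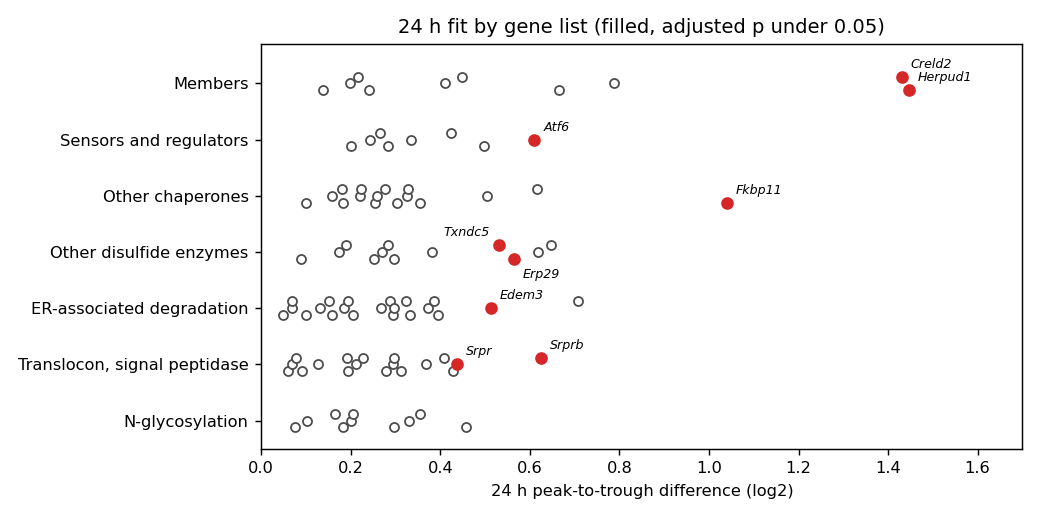
Fitted 24 h change from trough to peak (log2) of each tested gene in the 6 pathway lists and of the 10 genes described here (top row, Members), with filled points for an adjusted p under 0.05 by edgeR. Pdia2 is left off because its fitted change rests on 1 library, and Herpud1 and Creld2 have the highest values shown, 1.45 and 1.43.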

How the data were processed

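Ribosome-protected fragments of 14 mouse liver libraries were analysed. The deposited values are raw counts of reads per RefSeq transcript and region (5′UTR, CDS or 3′UTR), made by the authors without normalization. Per the methods, adapters were clipped, rRNA reads removed with Bowtie 2.1.0.0, the rest aligned to mm10 with exact matches kept (SAMtools 0.1.19.0), and footprints assigned to an A site. For profiles the methods name uniquely aligned reads. In the tables a read common to transcripts of a gene is counted for each, since both Hspa5 transcripts hold the same 345001 CDS counts. Whether reads with several genomic matches were counted is not given in the sources used here. A further run of CT16 replicate 2, among 15 labelled samples, has no file of its own here, and the all-even counts of that library may have been doubled, which scaling removes from CPM but not from raw reads. The last pair is named CT24 but has the time field CT00, and the name was used.

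Counts of the 3 regions were added per transcript. The 17299 transcripts that averaged 10 counts or more per library were tested with the quasi-likelihood test of edgeR 4.0.16 in R 4.3.3, with TMM scaling, on cosine and sine terms of 24 h, the same plus 12 h terms, CT24 against CT0, and any difference between the 7 times, with Benjamini-Hochberg adjustment over all transcripts and a threshold of 0.05. JTK_CYCLE (24 h, lags every 2 h) was written anew in Python 3.11.15 and run on CPM, with P adjusted over the lags within a transcript. The 5′UTR to CDS ratio was tested as a log2 ratio with a pseudocount of 0.5 by limma 3.58.1. DESeq2 1.42.0 was an alternative. Standard errors of phase come from least squares on log2 CPM. Tests were also run on simulated data, and their outcome there is not given here.

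The counts summed to 40593197 to 90458783 per library, so that 10 counts are well under 1 CPM, and intervals of counting error are not given since reads are not independent molecules. Replicate numbers were not used to pair mice. Their deviations from the time means correlated with r of -0.058 to 0.17 over the 21 pairs of times, 3 of them over 0.1.

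The genes and pathway lists were chosen with earlier results of these data known. All 10 genes were named. Of each list, the 2 genes with the lowest p at 24 h and the densest were named, and the other passing genes, Ern1 and Eif2ak3 were added after their values were seen. Promoters and coordinates come from RefSeq (GRCm38.p6, the mm10 assembly). Protein sequences were not used here.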

Additional observations from a re-analysis of the deposited data

How the results depend on the processing

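The 24 h call of Herpud1 was kept under all 27 alternatives, with adjusted p between 1.00e-15 and 0.0205, while that of Creld2 was lost under 17 of them. The count of the 10 genes called at 24 h, 2 in the fit described, was 1 with 1 transcript per gene, CDS reads only, the DESeq2 likelihood ratio test, the even counts of CT16 replicate 2 halved, upper-quartile scaling, the replicate block, without the CT0 libraries and without the CT24 libraries. The Creld2 adjusted p then lay between 0.0502 and 0.0808. With the replicate block 1 gene was called and Creld2 had an adjusted p of 0.0503. The count was 3 with total-count scaling and 1 to 3 with a library left out (8.66% to 11.9% of all transcripts). Over these settings 1396 to 2539 of all transcripts were called, and with 1 transcript per gene 1251 of 11747. At 12 h the count, 0, was 0 to 1 with a library left out (0.133% to 0.289%). For any change over the 7 times, 1, it was 3 with a count minimum of 1 (6.98% of all transcripts), 3 with total-count scaling (12.7%), and 1 to 3 with a library left out (4.95% to 8.22%). By JTK_CYCLE, 1, it was 0 to 5 with a library left out (12.0% to 28.8% of all transcripts). With Benjamini-Hochberg q values it was 0 on total-count CPM of all libraries (2.22% of all transcripts). By q Herpud1 passed on TMM CPM (0.0132), as did 3.68% of all transcripts. Pdia6 passed by q without CT16 replicate 1 (0.0316, with 11.1% of all transcripts) or CT20 replicate 1 (0.0486, with 9.4%). For CT24 against CT0 it was 0 throughout, as for the 5′UTR ratio, but the difference reversed for Manf without CT0 replicate 1 (-0.21 with all libraries, -0.57 to 0.24 with a library left out) and for Hsp90b1 with total-count scaling (-0.041 against 0.27). The Xbp1 ratio stayed without a call, with permutation p of 0.293 to 0.870. The cause of these changes was not tested. With 2 mice per time, genes that differ as much between mice as Hspa5 or Creld2 limit what a 24 h change of their size can show.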
